A study of Mus musculus with 171 samples.

Results

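Fasn, Acaca, Gpd1, Cidea and Cidec are 5 genes of fat synthesis and fat storage that were followed across 88 sources of mouse RNA on 171 arrays. They were taken by symbol: each probe that the platform annotation assigns to 1 of these symbols belongs to the set, which gave 5 probes for 5 genes, out of 5755 named genes and 8734 probes in all. Every one of the 5 probes had a value on all 171 arrays. Total RNA of each source had been hybridised to a spotted array against a universal mouse reference RNA, and 83 sources had 2 arrays and 5 had 1. Whether the arrays of a source hold RNA of different animals is unstated, and in 70 of the 83 sources both titles end in the same code; the p-values therefore rest on array-to-array spread that may be technical.

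The sources that the comparisons use are mammary gland in lactation and in involution, brown adipose tissue, skeletal muscle, lymph nodes stimulated with complete Freund's adjuvant and unstimulated lymph nodes, heart atrium and ventricle, and synovium that was normal or had acute or chronic arthritis. Liver was taken at embryonic day 14, at postnatal day 14, from fed adults, 6 h after a sham operation, and 6 h and 24 h into regeneration. Lung was taken at embryonic days 13.5, 16.5 and 18.5, at postnatal days 1, 5, 12 and 24, and from adults. For these sources the labels used here give no strain, genotype, pool size or day of lactation or involution, and no sex beyond what the tissue implies. Elsewhere in the series some labels do name C57, wt, WT or tg, for spleen, brain and heart of embryos, 1 jejunal source and a heart called hyperdynamic. The day 14 fetal liver is labelled as a haematopoietic organ.

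Acetyl-CoA carboxylase, encoded by Acaca, makes malonyl-CoA, and fatty acid synthase, encoded by Fasn, builds long saturated fatty acids from it. Glycerol-3-phosphate dehydrogenase, encoded by Gpd1, reduces a glycolytic intermediate to the glycerol-3-phosphate on which triglycerides are assembled. Cidea and Cidec encode proteins of the lipid droplet surface that bring droplets together and let them grow; Cidea is known from brown fat and from the milk-secreting mammary epithelium, and Cidec from white fat and from fatty liver.

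The values the authors deposited are log ratios in which each probe had been centred near 0 over the arrays. A log ratio of 0 is therefore the usual level of that probe, values of different genes cannot be ranked against each other, and a fold given here assumes base 2. Base, dyes and direction are not stated. The ratio was read as source over reference because tissue markers were high in their own tissue: the mean log2 ratio of 4 hepatocyte genes (Apoc3, Apob, Fgb and Ambp) was 5.26 and 5.33 on the arrays of adult liver. If the ratio ran the other way, every difference below would change sign. Arrays held 5137 to 8658 values, the median log2 ratio of an array ran from -0.92 to 0.24, and the correlation between both arrays of a source ran from 0.381 to 0.987, with a median of 0.869. Of 14535 pairs of arrays, 356 had a correlation below -0.3, in values that had been centred per probe.

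Windows before the annotated gene start are shown for Fasn and Acaca because the levels of these genes went together most closely over the sources, as described further on. Each is the 250 bases before the gene start in RefSeq for the build GRCm38.p6, written 5′ to 3′ on the strand of the gene. Capitals mark the letters CCAAT on either strand, the CCAAT box.
Fasn, chr11:120824548-120824797, minus strand: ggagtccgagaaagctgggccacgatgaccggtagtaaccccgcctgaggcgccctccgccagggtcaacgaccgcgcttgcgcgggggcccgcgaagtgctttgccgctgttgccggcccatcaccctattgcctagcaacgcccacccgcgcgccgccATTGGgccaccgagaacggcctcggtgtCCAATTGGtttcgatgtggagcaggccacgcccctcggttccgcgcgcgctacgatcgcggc
Acaca, chr11:84195188-84195437, plus strand: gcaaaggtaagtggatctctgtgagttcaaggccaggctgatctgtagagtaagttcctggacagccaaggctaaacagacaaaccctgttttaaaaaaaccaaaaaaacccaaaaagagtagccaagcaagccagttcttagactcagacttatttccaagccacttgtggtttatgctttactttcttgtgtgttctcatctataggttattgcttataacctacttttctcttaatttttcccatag
The Fasn window held 3 matches to CCAAT, starting 90, 62 and 59 bases before the gene start, the last pair overlapping on opposite strands, and the Acaca window held 0. Of all 32851 windows of this length, 33.8% held at least 1 match. GGGCGG, TCACNCCAC and TATAAA, searched on both strands, had 0 matches in both windows and occurred in 32.7%, 1.1% and 12.4% of all windows. CANNTG had 1 match in each, at 61 bases before the start in Fasn (overlapping CCAAT there) and 87 in Acaca, and occurred in 66.2% of windows. The Fasn window was 69.2% G or C and the Acaca window 39.2%, against a median of 52.4% over all windows. The Acaca window ends in a stretch rich in C and T followed by AG, as introns do. Its annotated start may therefore be that of an inner exon and the window no promoter, which was not tested. For Cidec the table gives windows for a pair of starts, in which CCAAT had 0 matches.

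Brown fat held the highest mean of 88 sources for 4 of the 5 genes, and lactating mammary gland held it for Cidea. Brown fat was the only source in which every array lay above a log2 ratio of 1 for all 5 genes; mammary gland in involution and the jejunal tumour Jej3, which has 1 array, reached this for 4. Over 88 sources the 5 genes did not share 1 order: skin of embryonic day 16 stood second for Cidea and Gpd1 and had Fasn log2 ratios of 0.15 and 0.25.

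**Figure D1:**
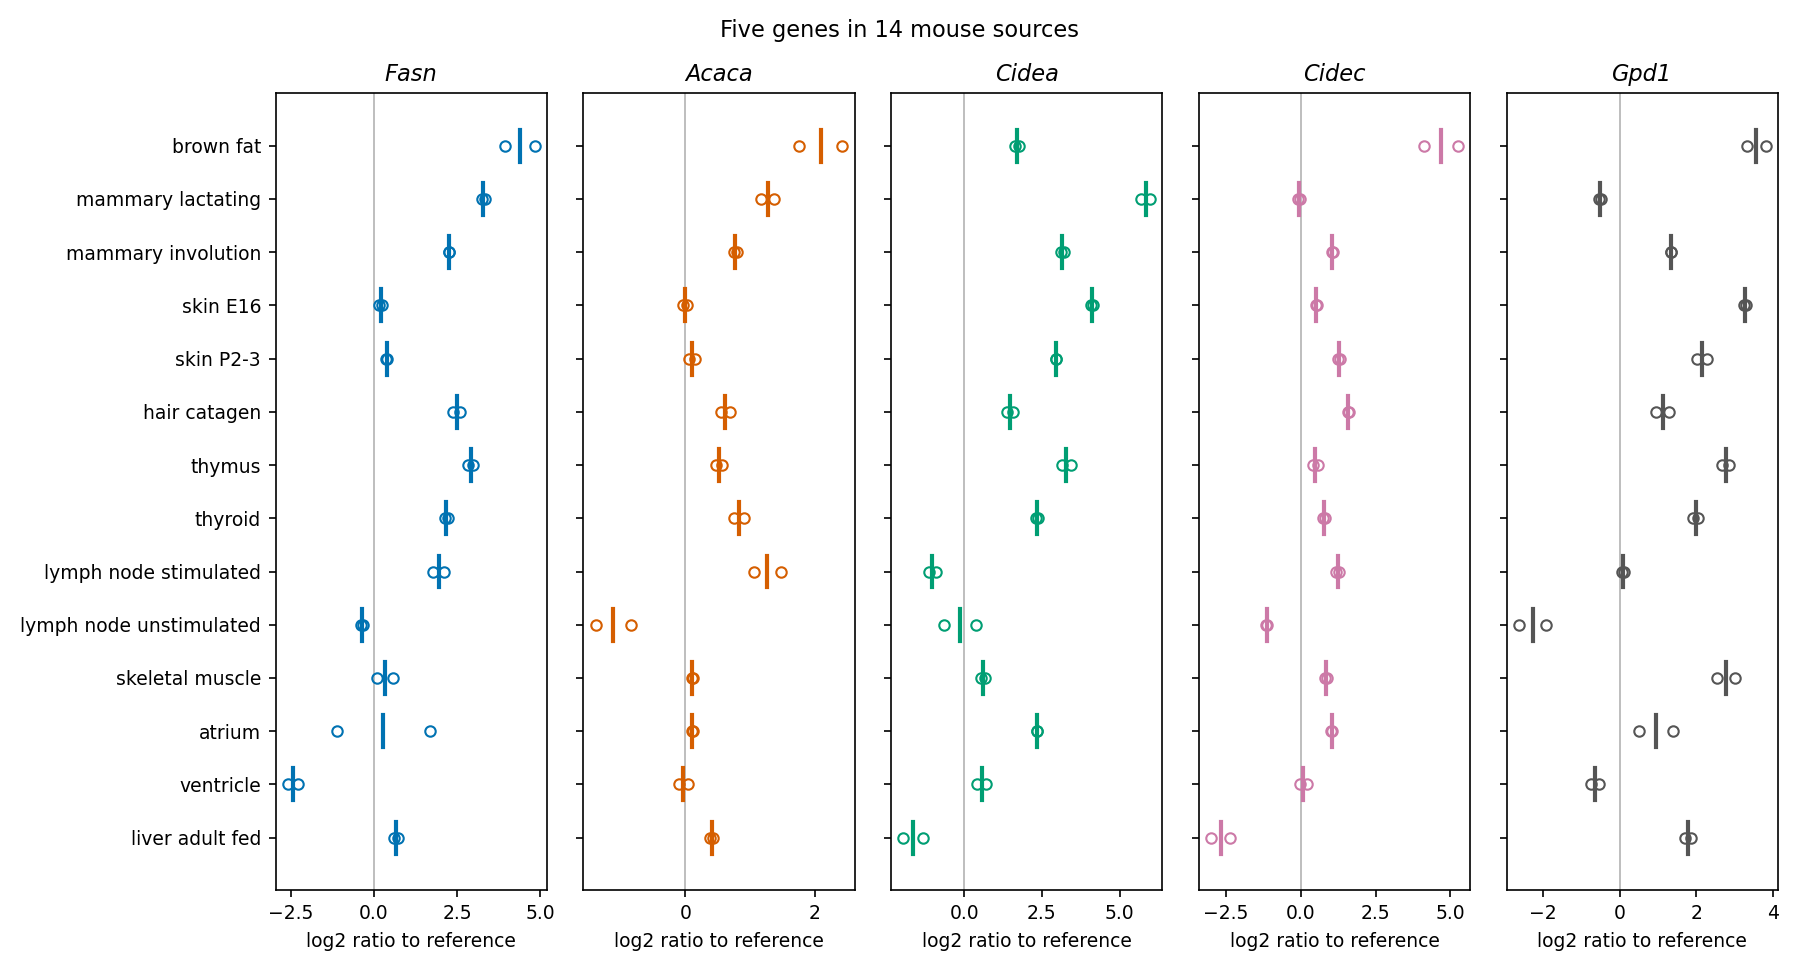
Log2 ratio to the reference RNA (horizontal axis) of the 5 genes on each array (circles) of 14 sources, with the mean as a bar and a scale of its own for each gene; the sources were chosen after their values were seen. Brown fat lies furthest right for Fasn, Acaca, Cidec and Gpd1, and lactating mammary gland for Cidea at 5.70 and 5.98.

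Fasn had log2 ratios of 3.95 and 4.83 in brown fat, above every array of every other source. Lactating mammary gland followed at 3.26 and 3.33, thymus at 2.84 and 2.98, hair skin in catagen (the regression phase of the hair cycle) at 2.39 and 2.60, involuting mammary gland at 2.26 and 2.27, thyroid at 2.14 and 2.22, and stimulated lymph node at 1.78 and 2.12. From brown fat down to stimulated lymph node no neighbours in this order overlapped in their arrays, whereas 74 of the 87 neighbouring pairs in the whole order did. The lowest means were those of the transgenic hyperdynamic heart, at -2.61 and -2.41, of ventricle, at -2.59 and -2.29, and of the control of the hyperdynamic heart, at -2.51 and -2.14; the arrays of these 3 overlapped. Fasn lay above 1 on every array of 12 sources, below -1 on every array of 11, and had a mean within 0.5 of 0 in 43.

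By organ, Fasn means were negative in all 4 kidney sources, from -1.34 to -0.40. The 26 gastrointestinal sources ran from -1.32 in small intestine of postnatal day 1 to 1.21 in the colon tumour Col2, and the 10 nervous system sources from -0.56 to 1.23. Among 6 immune sources thymus was highest, with a mean of 2.91, and spleen lowest, with -1.42.

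Acaca had the narrowest range of the 5 probes. It was highest in brown fat, at 1.76 and 2.43, with lactating mammary gland at 1.17 and 1.36 and stimulated lymph node at 1.05 and 1.47 next, overlapping each other. Thyroid followed at 0.76 and 0.90 and involuting mammary gland at 0.75 and 0.80. Unstimulated lymph node was lowest, at -1.39 and -0.84, overlapping blood mononuclear cells at -0.95 and -0.71. In 76 sources the mean lay within 0.5 of 0, and 80 of 87 neighbouring pairs overlapped. With quantile normalization of the arrays lactating mammary gland, not brown fat, was highest for Acaca; the other 4 genes kept their highest source, and with each array centred on its median all 5 did.

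Gpd1 had log2 ratios of 3.30 and 3.80 in brown fat. Skin of embryonic day 16 was next at 3.24 and 3.30, its upper array just under the lower array of brown fat. Then came duodenum at 2.86 and 2.94, skeletal muscle at 2.54 and 3.01, thymus at 2.68 and 2.84, liver of postnatal day 14 at 2.25 and 2.30 and proximal jejunum at 2.15 and 2.25; duodenum, muscle and thymus overlapped in this order, as did liver and jejunum, and the arrays of thymus lay above those of liver. The lowest value was -3.53 on the lone array of activated CD4 T cells, followed by bladder of postnatal day 1 at -2.87 and -2.21 and spleen at -3.07 and -1.80. Gpd1 was the member with the most sources above 1 on every array, 30, and 17 lay below -1. Among the 30 were intestinal tumours and a jejunal source on arrays of the # code, described below, whose part was not tested. The 3 uterus sources ran from -2.36 to -1.86, the 6 liver sources from -0.18 in fetal liver to 2.28, and the 26 gastrointestinal sources from -0.87 in cecum to 2.90.

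Cidec was 4.11 and 5.25 in brown fat, and the next sources were small intestine of postnatal day 1, at 1.98 and 2.01, and of postnatal day 14, at 1.89 and 1.95. Fetal small intestine of embryonic day 16.5 had 0.15 and 0.20. Hair skin in catagen stood at 1.57 and 1.60, regenerating liver at 6 h at 1.43 and 1.71 and stimulated lymph node at 1.18 and 1.30. The lowest means were in the control of the hyperdynamic heart, at -3.05 and -2.67, fed adult liver, at -2.99 and -2.36, activated CD4 T cells, at -2.67, and uterus in estrus, at -2.78 and -2.51. Liver thus held both a source near the top of the order of Cidec and a source near its bottom.

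Cidea was 5.70 and 5.98 in lactating mammary gland. Outside the arrays described in the next paragraph, skin of embryonic day 16 followed at 4.07 and 4.14, thymus at 3.14 and 3.43, involuting mammary gland at 3.10 and 3.21, and skin of postnatal days 2 to 3 at 2.94 and 2.95. Thyroid was at 2.32 and 2.39, atrium at 2.34 and 2.36, and brown fat at 1.64 and 1.75. The 6 liver sources had means from -2.11 to -0.74 and the 3 uterus sources from -1.52 to -1.21.

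Cidea also followed the array codes written in the titles, whose meaning the labels do not give. On 16 arrays the code has the form #; these come from 8 intestinal tumour sources and from the jejunal source numbered 46. All 16 lay above 1, from 1.12 to 3.01 with a median of 2.26, against medians of 0.07 on 69 arrays with codes in AC and -0.40 on 86 arrays with codes in AF. Proximal jejunum 46, on # arrays, had Cidea at 1.78 and 2.01, and the other proximal jejunum source, on AF arrays, had -1.10 and -0.20. In 9 sources that had 1 array of the code AF6 and 1 of the code AFB, the AF6 array was higher for Cidea in 9 of 9, by a median of 1.25 and from 0.54 to 2.31. For Fasn this difference ran from -0.75 to 0.79 and was above 0 in 4 of 9. It was above 0 in 7 of 9 for Gpd1, 5 for Cidec and 3 for Acaca. Gpd1 had a median of 1.45 on the # arrays, with 11 of 16 above 1, against -0.22 on AC and on AF arrays. Cidec had medians of 0.80 on #, -0.15 on AC and 0.09 on AF arrays. All # arrays hold intestine, so code and tissue coincide in part. The part of the code in the Cidea, Gpd1 or Cidec levels of intestinal tumours was not tested, and no difference between tumour and normal gut is read from them here.

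**Figure D2:**
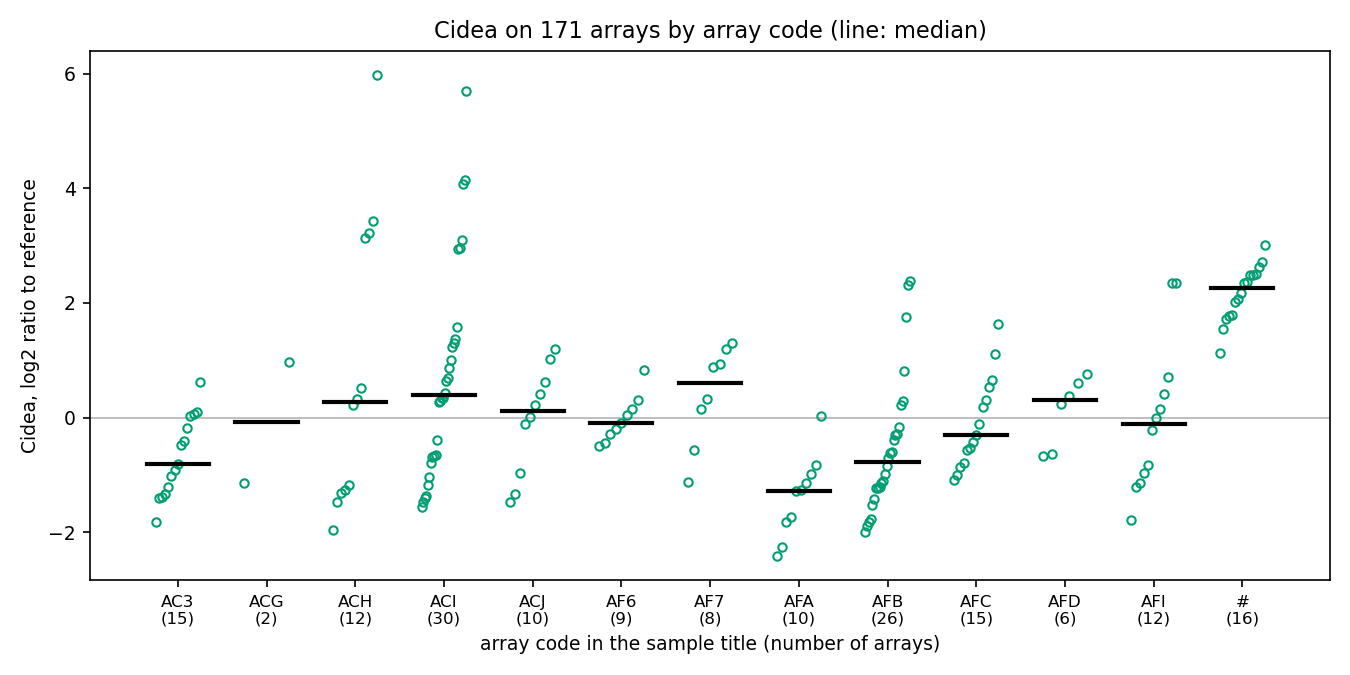
Log2 ratio of Cidea on all 171 arrays (circles), grouped on the horizontal axis by the 13 array codes in the sample titles, with the number of arrays in brackets and the median as a line. All 16 arrays of the # code lie above 1, and the highest values, from the lactating mammary gland, are at 5.98 and 5.70.

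The arrays of a source agreed to different degrees for the 5 genes. The pooled standard deviation within a source was 0.156 for Acaca, 0.285 for Gpd1, 0.324 for Fasn, 0.344 for Cidec and 0.496 for Cidea, against standard deviations between source means of 0.419, 1.54, 1.16, 1.19 and 1.50 in the same order. The arrays of a source differed by more than 1 in 13 of 83 sources for Cidea, 5 for Cidec, 3 for Gpd1 and 2 for Fasn. The largest such gap was that of Fasn in atrium, at -1.12 and 1.67.

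Over the 88 source means, which share the reference RNA and in part the arrays' codes, Fasn went with Acaca at a Pearson correlation of 0.68, and 0.60 without brown fat. Cidec went with Gpd1 at 0.61, and 0.58 without brown fat. The other 8 pairs had correlations from 0.21 to 0.36. Among 5701 genes, the 5 most like Fasn were Acaca (0.68), Acly (0.68), which encodes the enzyme that supplies cytosolic acetyl-CoA, Pfkfb3 (0.51), Bscl2 (0.50) and Adig (0.46). Those most like Acaca were Fasn (0.68), Clec10a (0.63), Camsap2 (0.62), Pik3cb (0.59, over 80 sources) and A530016L24Rik (0.57). For Gpd1 they were Mlxipl (0.73), the carbohydrate-responsive transcription factor ChREBP, Ephx2 (0.72), Tob1 (0.69), Selenop (0.64) and Pccb (0.64). Cidec was most like Pparg (0.61), the adipocyte transcription factor, Gpd1 (0.61), Pgrmc2 (0.59), Mcur1 (0.57) and Tmem120a (0.57). Cidea was most like Ucp3 (0.70), a mitochondrial carrier, Wfdc18 (0.61), Adig (0.61), Lce1f (0.59) and Myot (0.59). These correlations are given as a description. Without brown fat some of these genes stood lower in the order: for Cidec, Pparg had 0.55 and rank 14, Mcur1 0.54 and rank 16, Tmem120a 0.50 and rank 55, while Pgrmc2 kept rank 2 with 0.65. For Fasn, Acly had 0.63 and rank 1, Pfkfb3 0.41 and rank 10, Bscl2 0.42 and rank 7, and Adig 0.35 and rank 28. For Acaca, Fasn moved to rank 14 with 0.60 and Camsap2 led with 0.68. The genes named for Cidea kept ranks 1 to 5, and those for Gpd1 ranks 1 to 4 and 6.

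In mammary gland, Fasn, Acaca and Cidea were higher in lactation, and Cidec and Gpd1 were higher in involution, the period of tissue regression after weaning. All 5 passed the test, where 43.1% of all 8638 tested probes did, 589 higher and 3131 lower in lactation; with each array centred on its median 2475 were higher and 2299 lower. As these are whole tissues, fewer cells of a type and less RNA per cell cannot be told apart.

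Cidea differed most, at 5.70 and 5.98 in lactation against 3.10 and 3.21 in involution, a log2 difference of 2.68 ± 0.48 (standard error), or 6.40-fold (limma, adjusted p = 2e-06). Fasn was at 3.26 and 3.33 against 2.26 and 2.27, a difference of 1.03 ± 0.32 (2.04-fold, limma adjusted p = 0.0059). Acaca was at 1.17 and 1.36 against 0.75 and 0.80, a difference of 0.50 ± 0.16 (limma adjusted p = 0.009). The arrays of lactation and involution did not overlap for any of these genes. Here and below such a gap says little by itself: in acute arthritis the arrays of all 5 genes lay apart from normal synovium and 0 were called. The share of all probes whose arrays lay apart was not counted.

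Gpd1 ran the other way, at -0.53 and -0.49 in lactation against 1.35 on both arrays of involution, so that it fell by 1.86 ± 0.28 on the log2 scale (limma adjusted p = 2.9e-08). Cidec was at -0.08 and -0.03 against 1.03 and 1.07, and fell by 1.11 ± 0.34 (limma adjusted p = 0.0051). The median difference of all probes was -0.23, and 0.09 with each array centred on its median; after centring the 5 differences were 3.00, 1.34, 0.81, -1.54 and -0.79 for Cidea, Fasn, Acaca, Gpd1 and Cidec. The call of Acaca was lost without the first array of involution (limma adjusted p = 0.057) and without the first array of lactation (limma adjusted p = 0.12).

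The counts of related genes follow the scaling, as those of all probes do, and are given with centring too. Of 13 other measured genes of fatty acid synthesis, 3 rose in lactation (Fads1 by 0.63, Pklr by 0.61 and Mcat by 0.48) and 1 fell (Slc25a1, the mitochondrial citrate carrier, by 0.58), with a median difference of 0.21; with centring 7 rose and 0 fell. Of 9 genes of triglyceride synthesis 1 rose (Gpam, the first acyltransferase, by 0.39) and 3 fell, among them Dgat1, which makes the final triglyceride bond, by 1.80 and Pck1 by 2.09; with centring 4 rose and 3 fell. Of 9 genes of lipolysis and uptake 5 fell, led by Angptl4, an inhibitor of lipoprotein lipase, which fell by 4.83, and with centring 5 fell and 2 rose. Of 8 genes of fatty acid oxidation 5 fell, with a median of -1.33; Acadm fell by 2.63 and Hadhb by 1.90, and with centring 5 fell and 1 rose. Of 6 adipocyte markers, Pparg fell by 0.69, Cebpa fell by 0.61 and Agt rose by 0.59; with centring 0 fell and 3 rose. The mean of the 6 was 0.54 and 0.62 in lactation against 0.53 and 0.57 in involution. The 6 macrophage markers had a mean of -0.58 and -0.38 in lactation against 1.34 and 1.37 in involution. The 4 measured mammary epithelial markers (Xdh, Krt19, Ltf and Trf, of 18 listed) had 2.08 on both arrays against 3.60 and 3.64. No casein gene was among them. Nasal respiratory mucosa (2.30) and the jejunal tumour Jej3 (2.17) had higher means than lactating gland, so these 4 genes do not measure mammary epithelium alone. The part of macrophages or epithelium in the 5 genes was not tested.

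Against skeletal muscle, brown fat was higher for 4 of the 5 genes, where 18.0% of all probes were called and 12.3% were called higher (1062 higher and 497 lower, and 748 and 601 with each array centred). Brown fat holds the highest mean of all sources for these 4, so their directions follow from that order and are no separate result. Fasn had 3.95 and 4.83 in brown fat against 0.10 and 0.57 in muscle, a log2 difference of 4.06 ± 0.32, or 16.7-fold (limma, adjusted p = 1.6e-19). Cidec had 4.11 and 5.25 against 0.81 and 0.89, a difference of 3.83 ± 0.34 (14.2-fold, limma adjusted p = 6.1e-17). Acaca had 1.76 and 2.43 against 0.10 and 0.11, a difference of 1.99 ± 0.16 (limma adjusted p = 1.2e-18). For each gene the arrays of the tissues lay apart.

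Gpd1 was high in both, at 3.30 and 3.80 in brown fat and 2.54 and 3.01 in muscle, with a difference of 0.78 ± 0.28 (limma adjusted p = 0.041) that was lost with each array centred (0.65, limma adjusted p = 0.14), with the 13 array codes as a covariate (0.53, limma adjusted p = 0.283), without the second brown fat array (limma adjusted p = 0.35) and without the first muscle array (limma adjusted p = 0.30). Cidea was at 1.64 and 1.75 against 0.53 and 0.66, a difference of 1.10 ± 0.48 that did not pass (limma adjusted p = 0.109).

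Of 13 genes of fatty acid synthesis 7 were higher in brown fat, among them Slc25a1 by 3.89, Acly by 3.28, Elovl6, which elongates palmitate, by 3.04 and Acss2 by 1.97. Dgat1 was higher by 3.09, and so were Bscl2, which encodes seipin of droplet formation, by 2.79, Angptl4 by 3.26, the monoglyceride lipase Mgll by 3.11 and the triglyceride lipase Pnpla2 by 2.88. Of 6 adipocyte markers 3 were higher: Pparg by 3.08, Cebpa by 0.76 and Agt by 0.70. The mean of the 6 markers was 0.77 and 1.16 in brown fat, where its mean over both arrays was the highest of 88 sources, although Lep lay at -0.68 and -0.36. Of 14 brown adipocyte markers 1 was measured, Slc27a2, and its highest means were in kidney and liver, so that the brown character of the tissue was not checked here.

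Lactating mammary gland and brown fat, the top sources of the 5 genes, differed in all of them, where 67.5% of all probes were called, 2071 higher in mammary gland and 3759 lower (3046 and 3061 with each array centred). As these sources hold the highest means, the directions follow from the order of sources given above and are no separate result. Cidea was higher in mammary gland by 4.14 ± 0.48, or 17.7-fold (limma, adjusted p = 3.9e-12). The other 4 were lower there: Cidec fell by 4.74 ± 0.34, Gpd1 by 4.06 ± 0.28, Fasn by 1.10 ± 0.32 and Acaca by 0.82 ± 0.16 (limma adjusted p from 4.9e-23 to 0.0021). Without the second brown fat array the difference of Fasn was -0.66 and not called (limma adjusted p = 0.15). The direction for Acaca turned with quantile normalization, to 1.05 (limma adjusted p = 7.3e-07). The median of all probes was -0.33 here, and -0.065 with each array centred. Both lactating arrays had AC codes and both brown fat arrays AF codes, so code and tissue coincide here. With code form as a covariate, fitted over all sources, the 5 genes stayed calls and 5189 of all probes were called. With the array codes as a covariate the 5 genes also stayed calls, and 3892 of all probes were called. Both fits take the shift of a code to be the same in every source. Cidea followed the codes, as described above, and beyond these fits the part of the code in its difference here was not tested. This comparison and the one with muscle share the brown fat arrays.

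**Figure D3:**
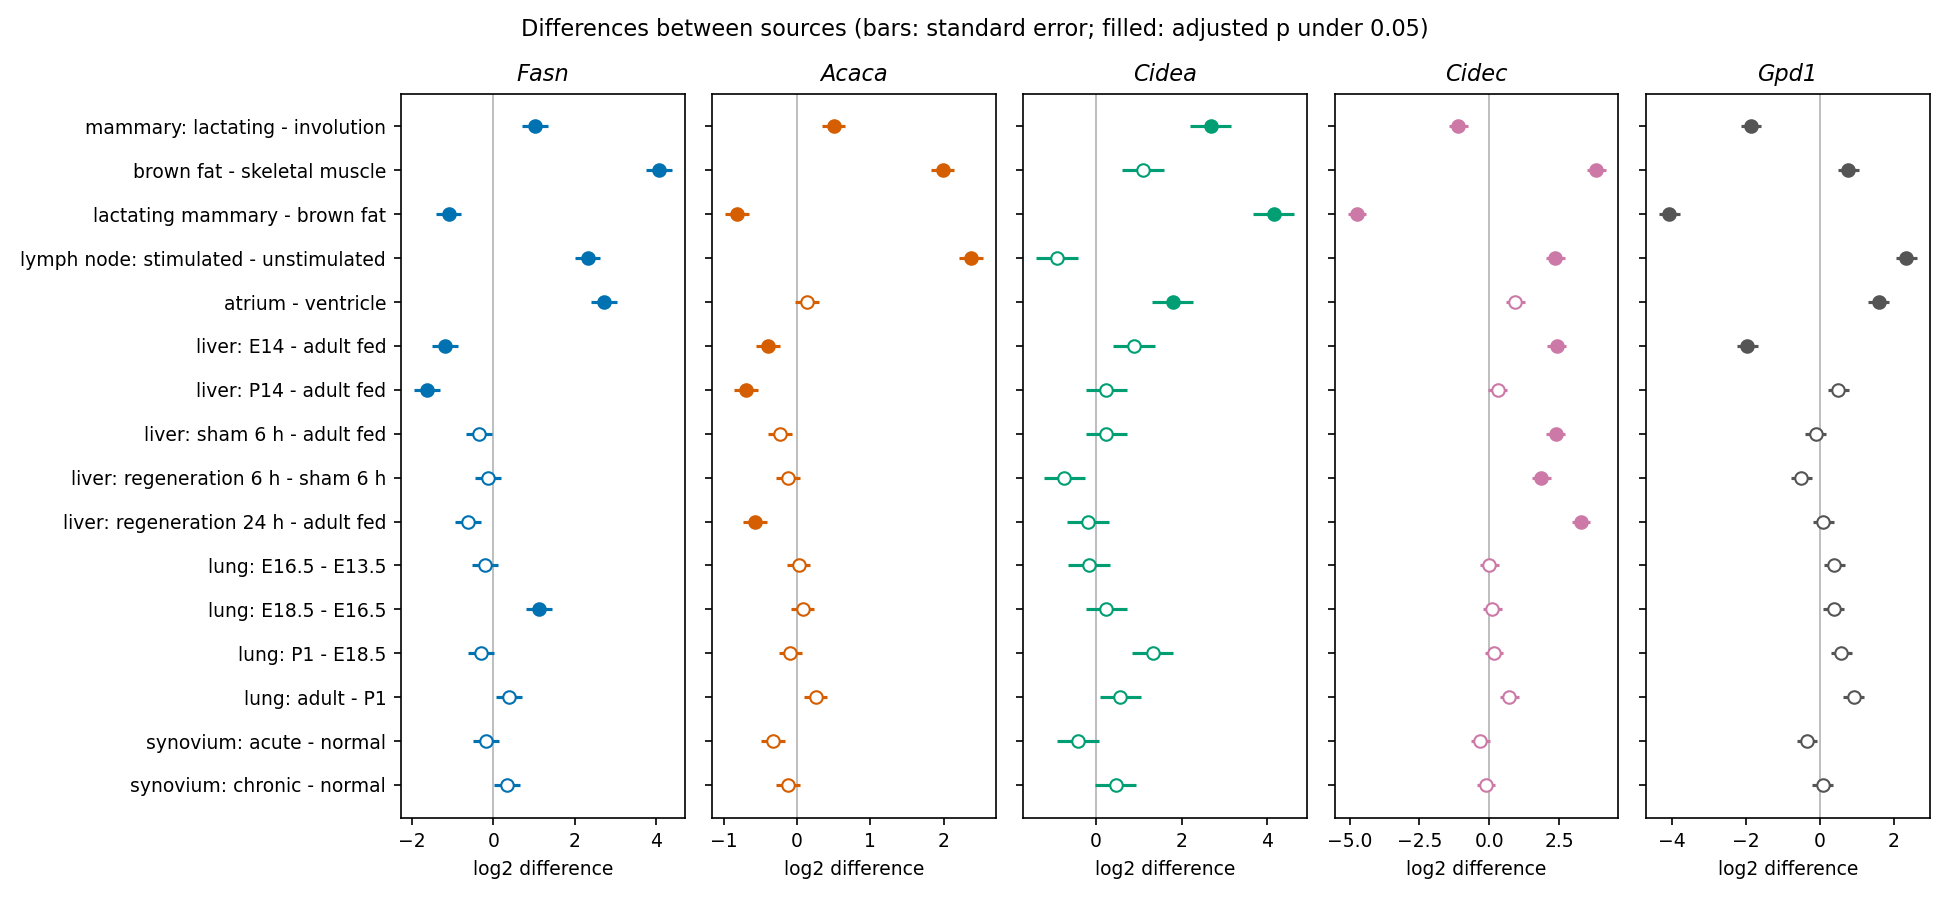
Log2 difference with its standard error for each gene (panels) in the 16 comparisons (rows); filled points passed an adjusted p of 0.05 in limma. The Cidea and Cidec points lie on opposite sides of 0 for lactating mammary gland against brown fat, at 4.14 and -4.74.

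Stimulated lymph nodes had higher Fasn, Acaca, Cidec and Gpd1 than unstimulated nodes, by closely similar amounts, where 39.9% of all probes were called, 1899 of them higher and 1546 lower. Fasn was at 1.78 and 2.12 against -0.38 and -0.33, a log2 difference of 2.31 ± 0.32 (limma, adjusted p = 7.5e-09). Acaca was at 1.05 and 1.47 against -1.39 and -0.84, a difference of 2.38 ± 0.16 (limma adjusted p = 5.3e-22). Cidec was at 1.18 and 1.30 against -1.15 and -1.11, a difference of 2.37 ± 0.34 (limma adjusted p = 1.9e-08). Gpd1 was at 0.06 and 0.11 against -2.62 and -1.90, a difference of 2.34 ± 0.28 (limma adjusted p = 1.3e-10). The arrays lay apart for each, and the folds ran from 4.97 to 5.20.

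Gpd1 in stimulated nodes thus stood near the usual level of its probe, whereas Fasn, Acaca and Cidec were among the 7 highest of the 88 sources there. Cidea was lower, at -1.14 and -0.91 against -0.63 and 0.39, a difference of -0.90 ± 0.48 that did not pass (limma adjusted p = 0.130). The stimulated nodes had 1 array with an AC code and 1 with an AF code and the unstimulated nodes had AF codes only; with the AF arrays alone, which leave 1 stimulated array whose spread is taken from the other sources, the differences were 2.48 for Fasn, 2.59 for Acaca, 2.42 for Cidec and 2.37 for Gpd1. Over the 13 finer codes, code and group cannot be told apart here.

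Of 13 other genes of fatty acid synthesis 5 rose in stimulated nodes, with a median of 0.49 against -0.02 for all probes, among them Slc25a1 by 1.20, Mcat by 1.01, Acss2 by 0.91 and Scd1, the fatty acid desaturase, by 0.60. Of 9 genes of triglyceride synthesis 5 rose, including Dgat1 by 1.10 and Agpat3 by 0.93. Mgll rose by 1.82 and Pnpla2 by 1.28, while the binding protein Fabp5 fell by 1.20. Of 8 genes of oxidation 3 fell, Acadvl by 0.95, Hadhb by 0.65 and Cpt1a by 0.60, and Decr1 rose by 0.42.

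Of 6 adipocyte markers 2 rose with stimulation and 1 fell: Lep, which encodes leptin, was at 1.13 on both arrays against -0.92 and -0.10, Adipor2 rose by 0.74 and Cebpa fell by 0.50. Pparg was at -0.61 on both stimulated arrays and at -1.69 and -0.47 on the unstimulated ones. The mean of the 6 was 0.20 and 0.52 against -0.22 and 0.03. Macrophage markers had means of 1.23 and 2.01 against 0.83 and 1.27, and T and B cell markers 3.56 and 4.34 against 2.96 and 3.68. The 6 blood cell markers had means of -0.44 and -0.38 against -1.65 and -1.36. The part of adipocytes or of these other cells in the 4 differences was not tested. Among relatives of the 5 genes, Gpd1l rose by 0.56, and of 2 probes of Cideb 1 fell by 1.11 and the other differed by -0.37 (limma adjusted p = 0.328).

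Atrium was above ventricle for Fasn, Cidea and Gpd1, where 8.46% of all probes were called and 5.41% were called higher. These shares rest on single arrays: 731 probes were called in all, 59 without the second atrial array, 1353 without the first and 248 without the second ventricular array. With each array centred, 328 were higher and 385 lower, against 467 and 264. Cidea was at 2.34 and 2.36 in atrium against 0.41 and 0.71 in ventricle, a log2 difference of 1.79 ± 0.48 (limma, adjusted p = 0.0094). Gpd1 was at 0.50 and 1.40 against -0.75 and -0.53, a difference of 1.59 ± 0.28 (limma adjusted p = 3.4e-05). Fasn was at -1.12 and 1.67 against -2.59 and -2.29, a difference of 2.72 ± 0.32 (limma adjusted p = 3.9e-10). Both atrial arrays lay above both ventricular arrays for Fasn, but they differed from each other by 2.79, which the standard error pooled over all sources does not show.

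Cidec was at 1.03 on both atrial arrays against -0.02 and 0.20, a difference of 0.94 ± 0.34 that did not pass (limma adjusted p = 0.068), and Acaca at 0.10 and 0.12 against -0.10 and 0.04 did not either (limma adjusted p = 0.851). When only the 4 heart arrays were fitted, 6 of all 8638 probes were called. No gene of the 5 was among them, with limma adjusted p of 0.73 for Fasn and Gpd1 and 0.20 for Cidea. The call of Cidea was lost without the second atrial array (limma adjusted p = 0.24) or the second ventricular array (limma adjusted p = 0.14). Of 6 adipocyte markers none passed the test, in limma, and their mean was 0.35 and 0.45 in atrium against 0.51 and 0.59 in ventricle. Of 13 genes of fatty acid synthesis Slc25a1, Elovl6 and Acly were higher in atrium, by 1.43, 1.27 and 1.02, and Srebf1 was lower, by 0.91. Of 8 genes of oxidation 3 were lower in atrium: Acadm fell by 1.18, Hadhb by 1.16 and Etfa by 1.08.

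In liver, Cidec had the widest range of the 5 genes. It was lowest in fed adults, at -2.99 and -2.36, and at postnatal day 14, at -2.39 and -2.35. It was at -0.37 and -0.15 in fetal liver, -0.30 and -0.28 after 6 h of sham surgery, 1.43 and 1.71 at 6 h of regeneration and 0.42 and 0.81 at 24 h. Cidea lay between -2.41 and -0.68 on all 12 liver arrays.

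**Figure D4:**
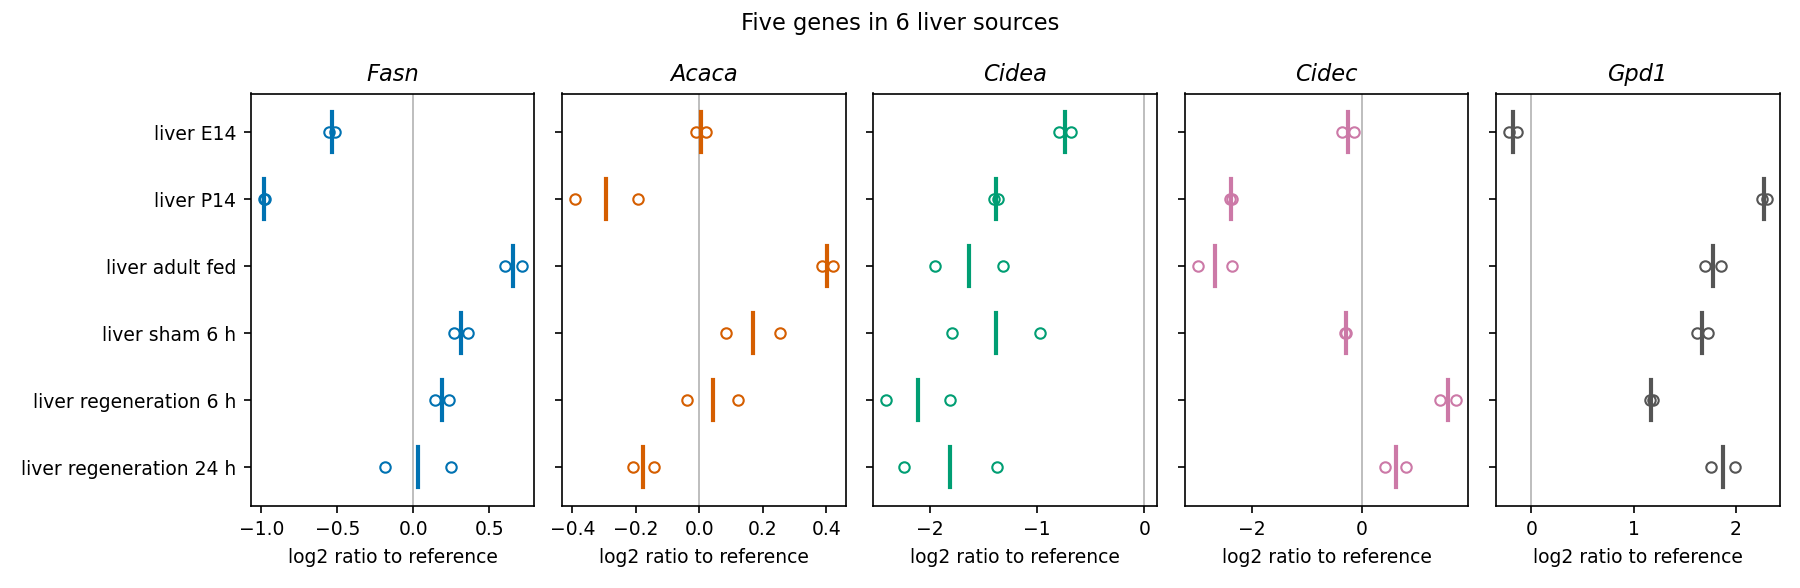
Log2 ratio to the reference RNA of the 5 genes on both arrays (circles) of 6 liver sources, with the mean as a bar and a scale of its own for each gene. Cidec runs from -2.99 on an array of fed adult liver to 1.71 on an array of liver at 6 h of regeneration, while Gpd1 is lowest in fetal liver at -0.22 and -0.14.

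Compared with fed adult liver, fetal liver of embryonic day 14 had lower Fasn, Acaca and Gpd1 and higher Cidec, where 61.2% of all probes were called, 3341 higher and 1944 lower (2042 and 3307 with each array centred). Fasn was at -0.56 and -0.52 against 0.60 and 0.71, and fell by 1.19 ± 0.32 (limma, adjusted p = 0.00087). Gpd1 was at -0.22 and -0.14 against 1.70 and 1.85, and fell by 1.96 ± 0.28 (limma adjusted p = 5.5e-09). Acaca was at -0.01 and 0.02 against 0.39 and 0.42, and fell by 0.40 ± 0.16 (limma adjusted p = 0.027), a call that was lost without any 1 of the 4 arrays. Cidec rose by 2.42 ± 0.34, or 5.33-fold (limma adjusted p = 2.3e-09), and Cidea differed by 0.90 ± 0.48 (limma adjusted p = 0.099). The fetal and day 14 arrays had ACI codes and the adult arrays ACH codes; with the array codes as a covariate Acaca in fetal liver was -0.34 and not called (limma adjusted p = 0.099), and Cidea was 1.02 and called (limma adjusted p = 0.015).

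Among related genes in fetal liver, Mlxipl fell by 2.53, Slc25a1 by 1.78 and Acss2 by 1.57. Cideb, the third gene of the Cide family and the one known from hepatocytes, fell on both of its probes, by 1.65 and 2.05, opposite to Cidec. The 6 blood cell markers had means of 3.25 and 3.36 in fetal liver against -0.63 and -0.36 in adult liver, and 4 hepatocyte markers 3.18 and 3.25 against 5.26 and 5.33; their part in these differences was not tested. The median of all probes was 0.19 and turned to -0.21 with each array centred, where the differences of Fasn, Gpd1 and Cidec were -1.59, -2.36 and 2.02.

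At postnatal day 14, in the suckling period, Fasn and Acaca were lower than in fed adult liver, where 38.7% of all probes were called, 637 higher and 2708 lower (1281 and 1302 with each array centred). Fasn was at -0.99 and -0.97, and fell by 1.64 ± 0.32 (limma, adjusted p = 4e-05). Acaca was at -0.39 and -0.19, and fell by 0.70 ± 0.16 (limma adjusted p = 0.00051). Gpd1 was at 2.25 and 2.30, a difference of 0.50 ± 0.28 (limma adjusted p = 0.143), and neither Cidec nor Cidea was called. With quantile normalization the differences of Fasn and Acaca were -0.76 and -0.24, and neither was called (limma adjusted p = 0.17 and 0.45).

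Of 13 other genes of fatty acid synthesis 8 fell at postnatal day 14, Acss2 by 2.86, Elovl6 by 1.75, Mlxipl by 1.29 and Slc25a1 by 1.09, with a median of -0.65 against -0.34 for all probes. With each array centred 4 fell and 2 rose, and with quantile normalization 2 fell and 0 rose. Of 8 genes of oxidation 3 rose (5 with centring, 2 with quantile normalization): Cpt1a, which admits fatty acids to mitochondria, by 1.86, Hadhb by 1.14 and Acadm by 0.74. The mean of the hepatocyte markers was 5.26 and 5.27.

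At 6 h after sham surgery Cidec was the 1 member that differed from fed adult liver, where 17.9% of all probes were called. Of these 263 were higher and 1286 lower, and with each array centred 623 were higher and 373 lower. Cidec rose by 2.38 ± 0.34, or 5.21-fold (limma, adjusted p = 8.5e-08). Both sham arrays had AF codes and both fed adult arrays AC codes, so code and surgery coincide here. With code form as a covariate, fitted over all sources, Cidec stayed a call and 3038 of all probes were called. Fasn was at 0.27 and 0.36 (a difference of -0.34 ± 0.32, limma adjusted p = 0.475). Of 13 genes of fatty acid synthesis 5 fell, among them Mlxipl by 1.59, Mid1ip1 by 1.27 and Acly by 1.22; 4 fell with centring and 1 with quantile normalization. Angptl4 rose by 1.73, Pnpla2 by 0.88 and Lpin1, a phosphatidate phosphatase and coactivator, by 1.87. Neither Cideb probe was called (differences of -0.54 and -0.26).

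At 6 h of regeneration Cidec was again the 1 member called, against sham surgery at the same hour, where 7.99% of all probes were, 132 higher and 558 lower (194 and 277 with each array centred). It rose by a further 1.86 ± 0.34, or 3.63-fold (limma, adjusted p = 5.4e-05). The difference was 1.06 with quantile normalization (limma adjusted p = 0.25) and 1.05 with the 13 array codes as a covariate, an alternative chosen after seeing the data (limma adjusted p = 0.28). It was not called with only the 4 arrays fitted (limma adjusted p = 0.13), where 0 of all probes were. The sham arrays both had AF codes and the regenerating liver 1 AF and 1 AC code. With the AF arrays alone, and so with 1 regenerating array whose spread is taken from the other sources, it was 2.00 (limma adjusted p = 0.0068). Fasn was at 0.14 and 0.23, Acaca at -0.04 and 0.12 and Gpd1 at 1.16 and 1.19, and none of these differences passed.

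At 24 h of regeneration Cidec was 3.29 ± 0.34 above fed adult liver, or 9.79-fold (limma, adjusted p = 6.7e-13), where 14.0% of all probes were called. Of these 1208 calls 986 were lower, and with each array centred 421 were higher and 282 lower. Cidec was called in all of the alternatives run, and with only the arrays of AC codes, 1 of them from regenerating liver, the difference was 3.10. Acaca fell by 0.58 ± 0.16 (limma adjusted p = 0.0093), a call that was lost with each array centred, with quantile normalization, with the array codes as a covariate (-0.49, limma adjusted p = 0.208) and without any of 3 of the 4 arrays, both adult arrays among them. Of 13 genes of fatty acid synthesis 6 fell, Mlxipl by 1.67, Mid1ip1 by 1.65, Fads1 by 1.47 and Acss2 by 1.40; 6 fell with centring and 1 with quantile normalization. The fetal, day 14, sham and 24 h comparisons share the arrays of fed adult liver, and the sham arrays serve in a pair of comparisons. The mean of 6 adipocyte markers was 0.39 and 0.57 in fed adult liver, 0.15 and 0.18 after sham surgery, 0.20 on both arrays at 6 h and 0.18 and 0.20 at 24 h. In fed adult liver Agt, at 1.83 and 2.07, and Adipor2, at 0.95 and 1.26, were the highest of the 6. The part of adipocytes in these livers was not tested. No operated control at 24 h was analysed here. Against fed adult liver the median of all probes was -0.34 at postnatal day 14, -0.25 after sham surgery and -0.24 at 24 h, and -0.086, -0.0018 and -0.041 with each array centred. No called difference of the 5 genes changed direction with centring, in liver or elsewhere.

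In lung, 1 of 20 tests of the 5 genes over 4 age steps passed. Fasn rose from -0.14 and 0.20 at embryonic day 16.5 to 0.90 and 1.38 at embryonic day 18.5, a log2 difference of 1.11 ± 0.32 (limma, adjusted p = 0.036), where 2.29% of all probes were called. The call was lost without any 1 of the 4 arrays, with differences from 0.87 to 1.35, and the arrays of both ages lay apart. In the same step the surfactant genes Sftpc, Sftpb and the phospholipid acyltransferase gene Lpcat1, all 3 measured markers of alveolar type 2 cells, rose by 2.73, 2.21 and 1.08 (1 of the 3 was called with quantile normalization), and Cd36 by 2.37. Other marker lists moved in this step too. Of 4 hepatocyte markers 2 rose, Fgb by 3.99 and Ambp by 3.40, and the mean of the 4 went from 0.33 and -0.23 to 1.96 and 1.93. Of 4 mammary epithelial markers 2 rose, Ltf by 2.53 and Trf by 1.89, with means from -0.06 on both arrays to 1.12 and 1.33. Of 6 adipocyte markers 1 rose, with means from -0.23 and -0.32 to 0.17 and 0.18. The part of any of these cells in the rise of Fasn was not tested. None of the 13 other genes of fatty acid synthesis was called in this step by limma.

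**Figure D5:**
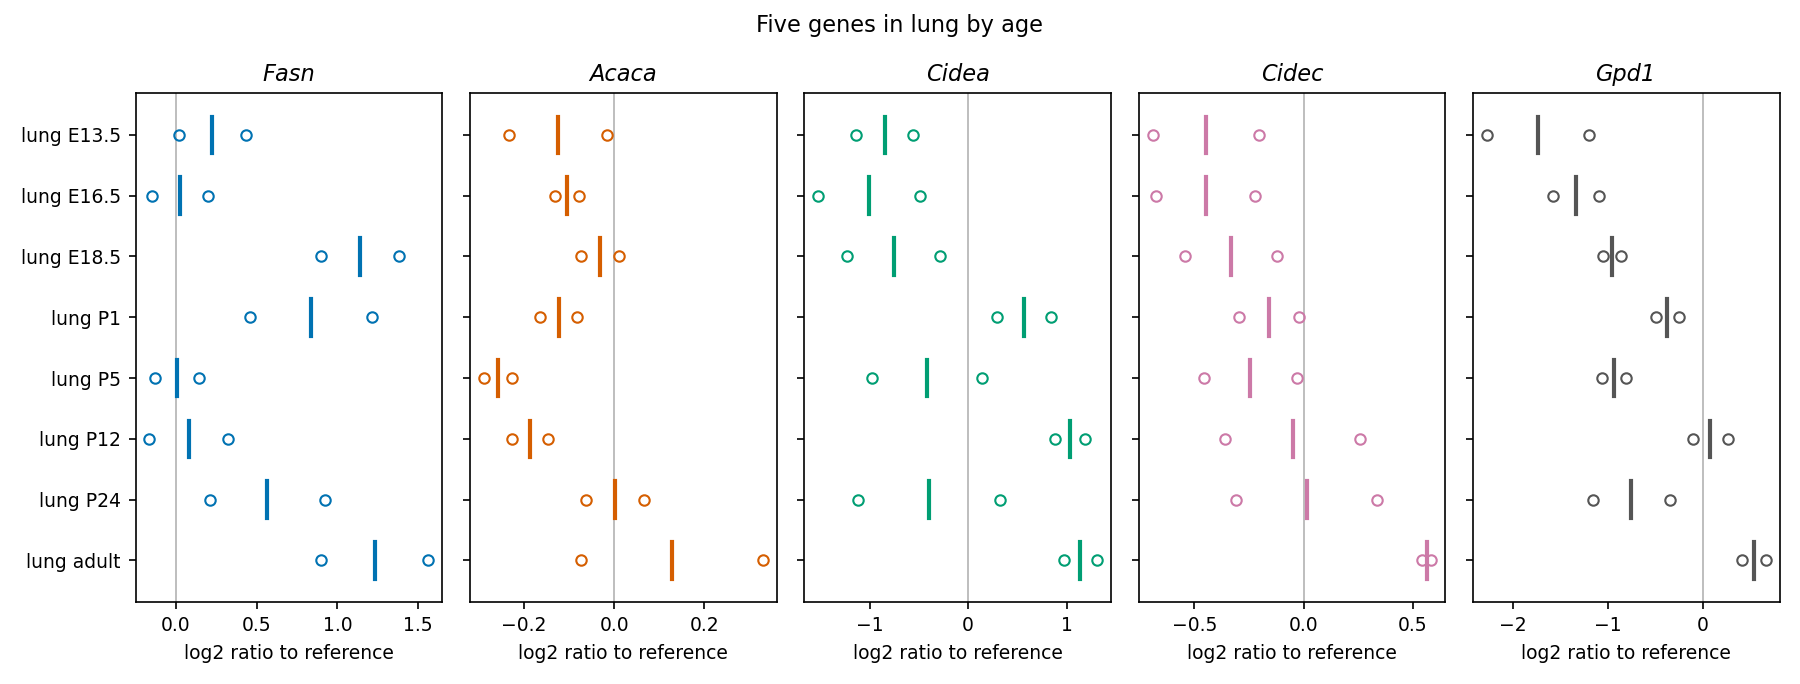
Log2 ratio to the reference RNA of the 5 genes on both arrays (circles) of lung at 8 ages, from embryonic day 13.5 to adult, with the mean as a bar and a scale of its own for each gene. Fasn lies at -0.14 and 0.20 at embryonic day 16.5 and at 0.90 and 1.38 at embryonic day 18.5, and Gpd1 has its lowest array at embryonic day 13.5, at -2.27, and its highest in adults, at 0.67.

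After birth Fasn was at 0.46 and 1.21 at postnatal day 1, -0.13 and 0.14 at day 5, -0.16 and 0.33 at day 12, 0.21 and 0.92 at day 24 and 0.90 and 1.56 in adults. Gpd1 was at -2.27 and -1.19 at embryonic day 13.5, -1.58 and -1.09 at day 16.5, -1.05 and -0.86 at day 18.5, -0.50 and -0.24 at postnatal day 1 and 0.42 and 0.67 in adults. The step of Gpd1 from postnatal day 1 to adult was 0.91 ± 0.28 and did not pass (limma adjusted p = 0.074), where 1.82% of all probes were called. Between these ages it was at -1.06 and -0.81 at day 5, -0.11 and 0.27 at day 12 and -1.16 and -0.34 at day 24, so that its order over ages was not even.

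Cidea was at -1.23 and -0.28 at embryonic day 18.5 and at 0.30 and 0.84 at postnatal day 1, a difference of 1.33 ± 0.48 that did not pass (limma adjusted p = 0.913), in a step where 0.174% of all probes were called. It was 2.07 and called with quantile normalization (limma adjusted p = 0.0059). Each of these ages had 1 array of the code AF6 and 1 of AFB, and with the array codes as a covariate, chosen after seeing the data, the difference of 1.33 was called (limma adjusted p = 0.041). Acaca lay between -0.29 and 0.33 on all 16 lung arrays. From embryonic day 13.5 to 16.5, where 1.20% of all probes were called by limma, none of the 5 genes was called and 0 had an unadjusted p under 0.05. In the steps from embryonic day 18.5 to postnatal day 1 and from there to adult, none was called by limma and 2 had an unadjusted p under 0.05 in each.

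In synovium none of the 5 genes was called by limma in acute or in chronic arthritis against normal tissue, where 9.06% and 3.82% of all probes were. An unadjusted p under 0.05 was found for 1 gene (Acaca) in acute and 0 genes in chronic arthritis. Of all 8638 probes, 1828 had such a p in acute and 1242 in chronic arthritis. Acaca was at 0.02 and 0.07 in acute arthritis against 0.28 and 0.46 (a log2 difference of -0.33 ± 0.16, limma adjusted p = 0.220), and Cidea at 0.23 and 0.27 against 0.63 and 0.69. Chronic arthritis had Cidea at 1.02 and 1.24. Acute and chronic arthritis, compared directly after the values were seen, gave no call among the 5 genes either (limma, 0 with an unadjusted p under 0.05), where 1.09% of all probes were called. With only the arrays compared, Acaca, Cidea and Gpd1 were called in acute arthritis, in a fit where 4722 of all 8638 probes were called. Macrophage markers had means of 1.67 on both arrays of acute arthritis against -0.24 and -0.14 in normal synovium, and Angptl4 rose by 3.18.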

How the data were processed

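The deposited values are log ratios, taken as log2 of tissue over reference RNA (base, dyes, direction and normalization are unstated in the labels and files used here). The values of 8709 of 8734 probes have a median within 0.001 of 0, and arrays were not on a common scale. Genes come from the platform annotation, in which 7540 probes had 1 symbol, 14 several and 1180 none.

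With R 4.3.3 and limma 3.58.1, 1 mean per source was fitted to all 171 arrays for 8638 probes with a value on at least 80% of arrays, with moderated variances and Benjamini-Hochberg adjustment, called at an adjusted p under 0.05. Plots were drawn with matplotlib 3.10.9, and tables made in Python 3.11.15 with numpy 2.4.6 and pandas 2.3.3. In simulated data for lactation against involution, 72% of 2-fold and 98% of 4-fold changes were recovered, and 7 of 177 calls were false. For the lymph nodes these were 85%, 99% and 9 of 193, for regeneration at 6 h 72%, 99% and 12 of 183, and for the first lung step 77%, 98% and 6 of 181. The simulated noise was independent, with 1 spread per probe and no shifts of whole arrays or effects of array codes. The real arrays hold such shifts, so these shares do not measure false calls in the real data.

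The members and gene lists were chosen with earlier results of these data known. Other genes named are, for each list, up to 4 called genes with the largest change, and the 5 genes most like each member, plus marker genes beside a result and the relatives Cideb and Gpd1l. The sources named by rank, the array codes as 13 groups and acute against chronic arthritis were chosen after seeing the data. The alternatives were array centring, quantile normalization, probes with values on every array, the mean over the probes of a gene, only the arrays compared, only arrays of 1 code form, code form or array code as a covariate, and leaving out each array. Complete probes gave 4173 tests and the mean over probes 5702, against 8638. A lower count there is therefore not by itself a loss of calls. The number of arrays limits the precision.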

Additional observations from a re-analysis of the deposited data

How the results depend on the processing

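Of 32 calls among 80 gene and comparison pairs, 30 stayed calls with each array centred, 27 with quantile normalization, 25 with only the arrays compared, 32 with probes complete on every array, 32 with the mean over probes, 32 with code form as a covariate and 24 of 28 with the 13 array codes. In every fit that left out 1 array 25 stayed, and none changed sign; 1 call turned, Acaca in lactating mammary gland against brown fat with quantile normalization (1.05). The cause was not tested for any change below. No paired analysis was possible because the labels give no replicate numbers. Array codes, shared by some groups, were fitted as a covariate instead.

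Called genes per comparison changed as follows. Atrium against ventricle had 0 of 5 with only the arrays compared, postnatal day 14 liver 0 with quantile normalization, and sham liver 2 with only the arrays compared. Regeneration at 6 h had 0 with quantile normalization, only the arrays compared or the array codes. Regeneration at 24 h had 1 with each of these 3 and with centring, and 1 to 2 without 1 array. Lung at embryonic day 18.5 had 0 with only the arrays compared and without any 1 array. Lung at postnatal day 1 had 1 with quantile normalization or array codes, adult lung 3 with quantile normalization, and acute arthritis 3 with only the arrays compared. Highest levels with quantile normalization were 5.72 for Fasn, 6.12 for Cidec and 4.25 for Gpd1 in brown fat, and 6.12 for Cidea in lactating mammary gland (6.11 with centring).

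Uncalled differences near 0 changed sign. With centring these were Acaca (0.015) and Gpd1 (0.15) after sham surgery, Fasn (0.0059) and Acaca (0.0061) at 6 h and Cidea (0.026) at 24 h of regeneration, and Cidec (0.0311) in lung from embryonic day 13.5 to 16.5. With quantile normalization they were Gpd1 (0.15) after sham surgery and Cidea (0.15) at 24 h. With AC arrays alone Cidea was 0.26 and Gpd1 -0.0235 at 24 h; with AF arrays alone Gpd1 was -0.14 in the first lung step. With code form as a covariate Cidec was 0.10 there, and with array codes Fasn 0.12 and Cidea 0.56 there, Gpd1 -0.25 at 24 h, Cidea -0.15 in adult lung and Gpd1 -0.0713 in chronic arthritis. Leaving out 1 array gave ranges across 0: in postnatal day 14 liver Cidea -0.0680 to 0.57 and Cidec -0.0167 to 0.62; after sham surgery Cidea -0.16 to 0.66; at 24 h Cidea -0.61 to 0.26 and Gpd1 -0.0235 to 0.21. In the first lung step they were Fasn -0.41 to 0.0075, Acaca -0.0879 to 0.13, Cidea -0.67 to 0.36, Cidec -0.24 to 0.24 and Gpd1 -0.14 to 0.94. In the later steps they were Cidea -0.27 to 0.77 and Cidec -0.11 to 0.34 to embryonic day 18.5, and Fasn -0.68 to 0.0735 and Cidec -0.0387 to 0.38 to postnatal day 1. In chronic arthritis they were Cidec -0.41 to 0.18 and Gpd1 -0.0089 to 0.16.

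Counts over all 8638 probes, 4173 complete probes or 5702 probe means moved by over 1.5 times. Lactation against involution (3720) had 1598 with quantile normalization, 2285 with complete probes, 2454 with the mean over probes and 5765 with only the arrays compared. In the same order of settings, the lymph node count (3445) was 2102, 2260, 2222 and 622. Brown fat against muscle (1559) had 1008 with complete probes and 738 with only the arrays compared, and lactating mammary gland against brown fat (5830) had 3611 with quantile normalization, 3074 with complete probes and 3762 with the mean over probes. Atrium against ventricle (731) had 6 with only the arrays compared. Fetal liver (5285) had 2627 with complete probes and 3490 with the mean over probes, and postnatal day 14 liver (3345) 682 with quantile normalization, 1332 with complete probes and 5226 with only the arrays compared. Sham liver (1549) had 996 with centring, 148 with quantile normalization, 996 with complete probes, 3670 with only the arrays compared and 3038 with code form. Regeneration at 6 h (690) had 19 with quantile normalization, 0 with only the arrays compared and 290 with array codes, and at 24 h (1208) 703 with centring, 106 with quantile normalization, 110 with only the arrays compared and 3585 with AC arrays. The first lung step (104) had 262 with quantile normalization, 0 with only the arrays compared or AF arrays, 2.2 times as many with code form and 5 with array codes. The later lung steps with quantile normalization had 956 (against 198), 189 (against 15) and 878 (against 157), and with only the arrays compared 119, 0 and 25. In adult lung complete probes gave 97, AF arrays 33 and array codes 61; at postnatal day 1 the mean over probes gave 8. Acute and chronic arthritis (783 and 330) had 1548 and 648 with quantile normalization, 519 and 211 with the mean over probes and 4722 and 1116 with only the arrays compared. Leaving out 1 array gave 976 (without the second muscle array) to 1831 for brown fat against muscle, 3530 (second brown fat array) to 5702 for mammary gland against brown fat, and 59 to 1353 for atrium (second and first atrial array; 248 without the second ventricular array). It gave 1849 to 2043 for postnatal day 14 liver, 448 to 0.614 times the 1549 for sham liver, 492 to 835 at 24 h and 224 to 805 at 6 h of regeneration, 23 to 133, 55 to 141, 6 to 14 and 60 to 194 for the lung steps in order of age, and 367 to 459 and 141 to 189 for acute and chronic arthritis. The lowest were those without an array of day 14 liver (second), sham liver (first), fed adult liver (second), regenerating liver at 6 h (first), lung at embryonic day 13.5 (first), 16.5 (second) and 18.5 (second) and postnatal day 1 (second), acute arthritis (first) and normal synovium (first). Lactation against involution (2591 to 2995), the lymph nodes (2496 to 3015) and fetal liver (4119 to 4660) moved by less.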
